A study of Mus musculus with 12 samples.

Results

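The genes described here are Mgll, Lynx1, Shisa3, Ndrg4, Gpc5, Slco1c1, Anxa3, Ptp4a3 and A2m, 9 of the 54532 genes counted in 12 RNAseq libraries of mouse brainstem progenitors. They were chosen on their large changes with H3.1K27M in these same libraries, so those changes are given below as values with no test. The progenitors came from C57BL/6 pups at postnatal days 3 to 5 with the genotype Nestin TVA; p53 floxed and were grown as neurospheres with EGF and FGF2. Every group carried an RCAS virus for ACVR1, a type I receptor for bone morphogenetic proteins (BMPs). The 4 groups of 3 libraries received ACVR1 WT, ACVR1 WT with H3.1K27M, the activating mutant ACVR1 R206H, or R206H with H3.1K27M. There was no uninfected or H3.1K27M-only group. RCAS viruses enter only cells with the Tv-a receptor, which the nestin promoter drives here, so cells without nestin stay uninfected. The labels for these libraries name no Cre virus, and they do not say whether the cultures with and without H3.1K27M started from the same cells.

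H3.1K27M is a histone H3 in which the lysine at position 27 is replaced by methionine. It inhibits the enzyme complex PRC2, and much of the genome then loses trimethylation of that lysine, a mark that keeps developmental genes silent at promoters rich in CpG dinucleotides. R206H makes ACVR1 signal more readily, and in diffuse intrinsic pontine glioma, a brainstem tumor of children, ACVR1 mutations tend to occur together with H3.1K27M. The question for each gene was therefore whether its change with H3.1K27M was the same under ACVR1 WT and under R206H, and whether R206H moved it on its own.

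In mm10 the genes lie on chromosomes 5, 6, 8, 14 and 15, and all but Lynx1 are on the plus strand. RefSeq promoter entries (GRCm38.p6) were matched for 5 of the 9 genes, namely Mgll, Shisa3, Ndrg4, Gpc5 and Slco1c1. The 250 bases before the start of 3 of them are shown because they differ in CpG content, and capitals mark each CG.
Mgll, chr6:88724162-88724411, plus strand: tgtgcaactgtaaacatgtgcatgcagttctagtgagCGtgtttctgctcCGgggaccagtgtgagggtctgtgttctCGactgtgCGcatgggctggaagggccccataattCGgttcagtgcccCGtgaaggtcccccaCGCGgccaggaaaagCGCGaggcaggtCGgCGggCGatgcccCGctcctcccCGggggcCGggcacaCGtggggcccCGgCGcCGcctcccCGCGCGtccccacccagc
Gpc5, chr14:115091965-115092214, plus strand: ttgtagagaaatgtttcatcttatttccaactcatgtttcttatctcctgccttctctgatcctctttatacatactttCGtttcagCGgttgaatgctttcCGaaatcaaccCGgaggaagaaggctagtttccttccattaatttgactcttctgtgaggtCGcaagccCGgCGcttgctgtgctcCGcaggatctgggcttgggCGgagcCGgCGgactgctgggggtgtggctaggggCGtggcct
Slco1c1, chr6:141524104-141524353, plus strand: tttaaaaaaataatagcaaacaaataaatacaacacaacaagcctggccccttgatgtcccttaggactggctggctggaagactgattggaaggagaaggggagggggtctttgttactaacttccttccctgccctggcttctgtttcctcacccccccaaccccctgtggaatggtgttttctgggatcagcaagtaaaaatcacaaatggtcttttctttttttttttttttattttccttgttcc
Of the windows shown, that of Mgll held 23 CG, that of Gpc5 12 and that of Slco1c1 0, against a median of 6 over 32841 RefSeq promoter entries of the same length. More CG were in windows not shown, since a second entry of Mgll held 40, Shisa3 held 25 and the 4 entries of Ndrg4 held from 6 to 31. At least 23 CG were found in 13.3% of all entries, at least 25 in 10.7% and at least 40 in 1.31%. So a gene that rose with H3.1K27M, Shisa3, and the gene that fell, Mgll, both had CpG-rich stretches, while Slco1c1, which also rose, had none. This counts letters, and no chromatin was measured in these libraries.

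Levels are CPM, the counts of a gene as a share of all counts in its library after TMM scaling (edgeR's correction for library composition), with 19315020 to 26456257 counts per library. The ACVR1 WT group without H3.1K27M was uneven. Its common biological coefficient of variation was 0.275, against 0.0453 to 0.0594 in the other groups. Replicate 1 of that group had 337 CPM of the proliferation gene Mki67 and 343 CPM of the astrocyte gene Gfap, while replicates 2 and 3 had 92.2 and 31.1 CPM of Mki67 and 1412 and 2655 CPM of Gfap. Values without replicate 1 are given for the change of the 9 genes with H3.1K27M and for each named gene whose call it changes. Among the cell type markers, the progenitor gene Nes and the astrocyte genes were present in all libraries. Of the endothelial genes Cldn5 had at most 1 count in any library, while Kdr had 18 to 97 counts.

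Mgll was the only one of the 9 genes that fell with H3.1K27M. It encodes monoacylglycerol lipase, the enzyme that breaks down the endocannabinoid 2-arachidonoylglycerol, and lies on chromosome 6 at positions 88724412 to 88828360. Without H3.1K27M it had 100.5, 208 and 264 CPM in the ACVR1 WT replicates and 137, 156 and 147 CPM in the R206H replicates. With H3.1K27M it had 39.4, 41.3 and 35.1 CPM under ACVR1 WT and 23.3, 23.9 and 20.95 CPM under R206H. All 6 libraries with H3.1K27M were below all 6 without it, and the lowest library without it was replicate 1 of ACVR1 WT. The fall was 2.32 on the log2 scale under ACVR1 WT (a log2 fold change of -2.32, standard error 0.34) and -2.66 (0.066) under R206H. Without replicate 1 of ACVR1 WT the first value was -2.62. An antisense gene, Gm26588, overlaps 167 exonic bases of Mgll, and the counts were made without strand, so reads in that 3.29% of its exons cannot be assigned to one of the pair.

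Lynx1, Shisa3 and Gpc5 encode proteins that work at the cell surface or on receptors, and all rose with H3.1K27M. Lynx1 (chromosome 15, positions 74747852 to 74753046) is a GPI-anchored relative of snake toxins that dampens nicotinic acetylcholine receptors. It had 11.998, 10.3 and 9.61 CPM with ACVR1 WT and 16.6, 14.7 and 14.3 CPM with R206H. With H3.1K27M the levels were 64.6, 68.1 and 69.2 CPM under ACVR1 WT and 76.0, 73.1 and 76.4 CPM under R206H. The 4 groups of Lynx1 did not overlap, and its log2 fold change with H3.1K27M was 2.65 (0.11) under ACVR1 WT and 2.34 (0.062) under R206H.

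Shisa3 (chromosome 5, positions 67607882 to 67623552) belongs to a family that holds back the maturation of Frizzled and FGF receptors. It had 11.9 to 14.4 CPM with ACVR1 WT and 11.97 to 17.5 CPM with R206H, and these ranges overlapped. With H3.1K27M it had 154, 147 and 147 CPM under ACVR1 WT and 194, 165 and 194 CPM under R206H. That is a log2 fold change of 3.45 (0.095) and 3.76 (0.11), a 10.96-fold and a 13.5-fold difference. Shisa3 shares 138 exonic bases, 2.9% of its exons, with Atp8a1 on the other strand.

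Gpc5 (chromosome 14, positions 115092215 to 116525179), a heparan sulfate proteoglycan on the cell surface, was among the low genes, with 35 to 44 counts in each library without H3.1K27M. These were 1.74, 1.81 and 1.80 CPM with ACVR1 WT and 2.21, 1.82 and 1.80 CPM with R206H. With H3.1K27M the levels were 13.9, 13.9 and 13.4 CPM under ACVR1 WT and 9.602, 10.2 and 10.8 CPM under R206H. Its log2 fold change was 2.93 (0.12) and 2.42 (0.13), and here the order of the H3.1K27M groups was reversed, with all R206H libraries below all ACVR1 WT libraries.

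Slco1c1 encodes a carrier of thyroid hormone that is known from the vessels and astrocytes of the brain, and it lies on chromosome 6 at positions 141524368 to 141570177. It was close to the detection limit without H3.1K27M, with 12, 12 and 9 counts in the ACVR1 WT replicates and 4, 6 and 10 counts in the R206H replicates. With H3.1K27M it had 10.6, 11.7 and 12.6 CPM under ACVR1 WT and 7.42, 7.98 and 9.41 CPM under R206H. The log2 fold changes were 4.41 (0.19) and 4.64 (0.23), and the small counts without H3.1K27M set their precision.

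Of the intracellular proteins, Anxa3 showed the highest fold change of the 9 genes. It is a calcium-dependent, phospholipid-binding annexin (chromosome 5, positions 96793339 to 96845966). Anxa3 had 3.20, 1.39 and 1.55 CPM with ACVR1 WT and 2.77, 2.65 and 3.45 CPM with R206H. With H3.1K27M the levels were 55.6, 51.8 and 60.2 CPM under ACVR1 WT and 86.5, 69.7 and 95.4 CPM under R206H. The log2 fold changes were 4.75 (0.31) and 4.85 (0.14), and without replicate 1 of ACVR1 WT the first was 5.23.

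Ndrg4 (chromosome 8, positions 95676980 to 95715119), a cytoplasmic protein of the N-myc downstream regulated family, had 47.9 to 51.9 CPM with ACVR1 WT and 66.0 to 77.0 CPM with R206H. With H3.1K27M its levels were 165 to 172 and 213 to 240.4 CPM. Ptp4a3 (chromosome 15, positions 73723145 to 73758766), a prenylated phosphatase also known as PRL-3, had 33.8 to 41.6 and 46.8 to 50.2 CPM without H3.1K27M and 132 to 141 and 153 to 166 CPM with it. Neither gene overlapped between any of the 4 groups. The log2 fold changes with H3.1K27M under ACVR1 WT and R206H were 1.73 (0.062) and 1.69 (0.062) for Ndrg4, and 1.87 (0.095) and 1.76 (0.050) for Ptp4a3.

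A2m (chromosome 6, positions 121635376 to 121679227) encodes alpha-2-macroglobulin, a secreted protein that traps proteases and binds growth factors. Without H3.1K27M it had 102, 96.5 and 87.9 CPM with ACVR1 WT and 169, 157 and 188 CPM with R206H. With H3.1K27M it had 392, 392 and 368 CPM under ACVR1 WT and 609, 509.9 and 574 CPM under R206H. The 4 groups were separate and in the same order as for Ndrg4 and Ptp4a3, and the log2 fold changes with H3.1K27M were 2.00 (0.083) and 1.75 (0.071).

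**Figure D1:**
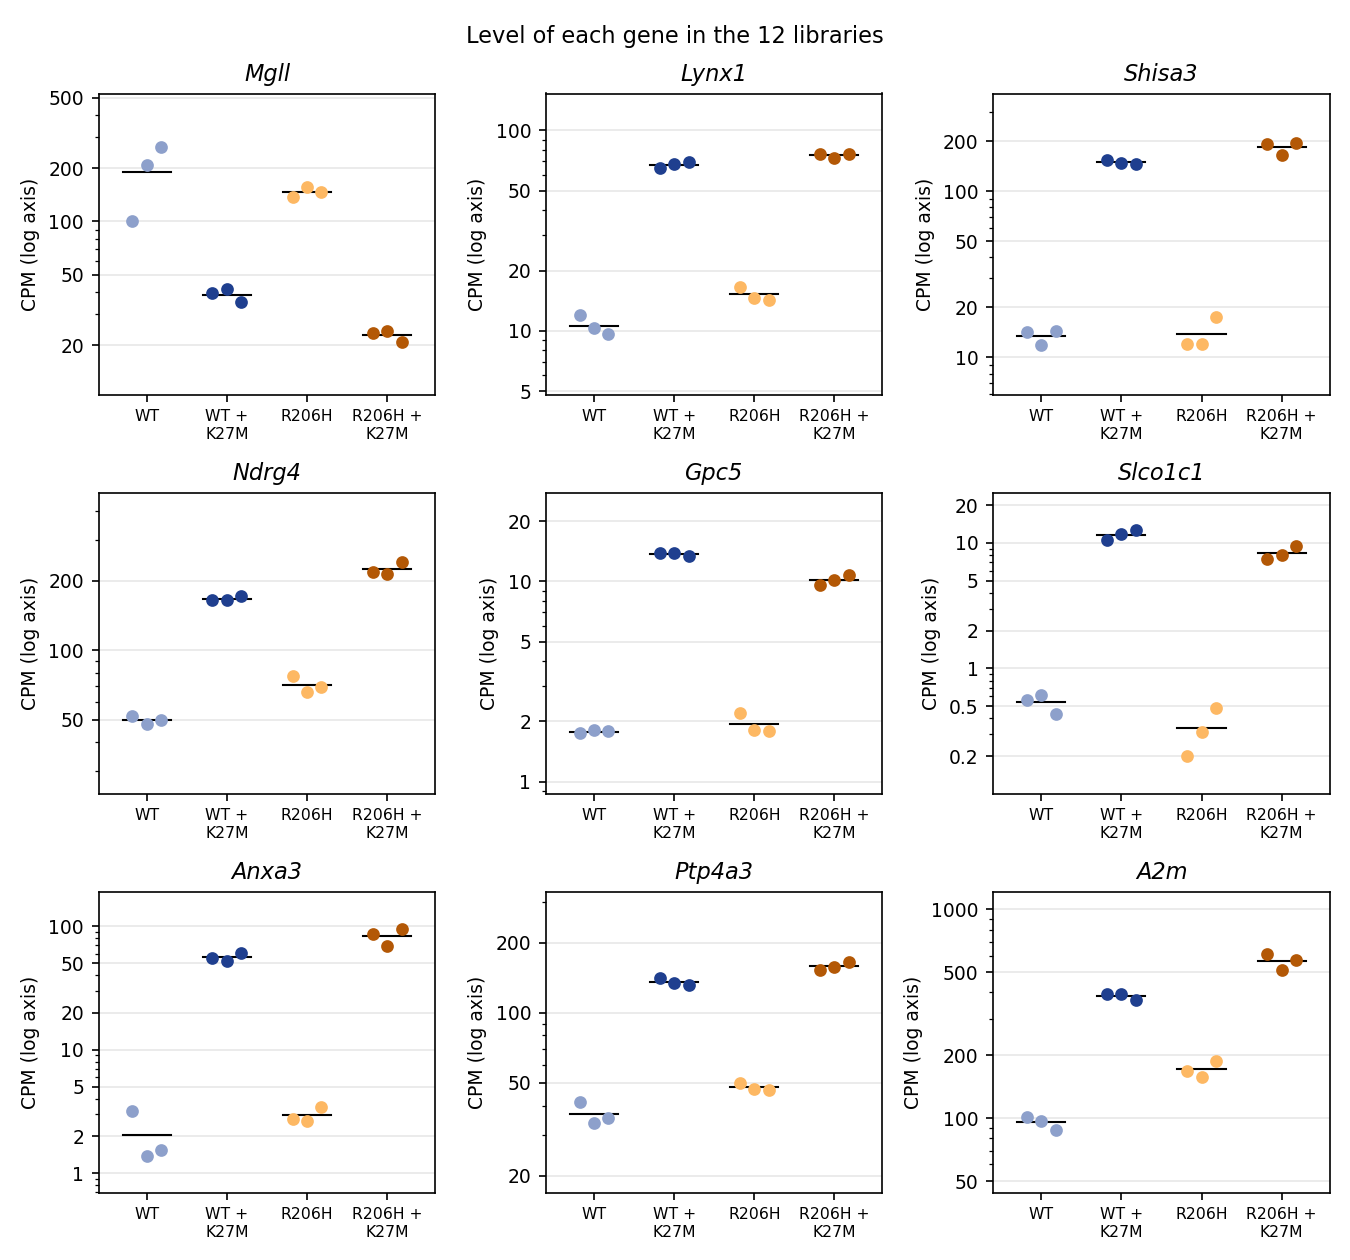
Level of the 9 genes in CPM (log axis, 1 panel per gene) in each of the 12 libraries, grouped by virus. Points are libraries and the horizontal line is the mean of 3. Mgll is lower and the other genes are higher in every library with H3.1K27M.

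Per kilobase of exon, a scale on which genes can be compared, A2m was the highest of the genes that rose, with 54.7 ± 2.00 CPM per kb (SD, n = 3) under ACVR1 WT with H3.1K27M and 80.4 ± 7.17 (SD, n = 3) under R206H with H3.1K27M. Ndrg4 had 34.1 ± 0.804 and Shisa3 31.4 ± 0.839 CPM per kb under ACVR1 WT with H3.1K27M, and Slco1c1 had 2.25 ± 0.191, the lowest of the 9. The fold change and the level thus ran in different orders, since Slco1c1 had a 21.2-fold difference and A2m a 3.99-fold difference under ACVR1 WT. Ranked by the size of the mean log2 fold change over both backgrounds among 15146 genes tested in both, Anxa3 was at 35, Slco1c1 at 39, Shisa3 at 67 and Ndrg4 at 620.

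The change with H3.1K27M was compared replicate by replicate between the backgrounds. For each gene, the log2 ratio of every library with H3.1K27M to every library without it was taken within a background, which gives 9 ratios. The ranges of these ratios overlapped between ACVR1 WT and R206H for 7 genes, A2m among them, and of 15357 genes with counts in all libraries 3.71% had ranges that did not overlap. They did not overlap for Gpc5, from 2.89 to 3.00 under ACVR1 WT and from 2.12 to 2.59 under R206H, and for Lynx1, from 2.43 to 2.85 and from 2.14 to 2.41. By replicate number, the Gpc5 ratios were 3.00, 2.94 and 2.90 under ACVR1 WT and 2.12, 2.48 and 2.59 under R206H. Wide ranges were those of Mgll under ACVR1 WT, from -2.91 to -1.28, and of Slco1c1 under R206H, from 3.93 to 5.55. Without replicate 1 of ACVR1 WT, the fitted changes under ACVR1 WT were 2.74 for Lynx1, 3.49 for Shisa3, 2.91 for Gpc5 and 4.45 for Slco1c1. Those of Ndrg4, Ptp4a3 and A2m were 1.76, 1.96 and 2.05.

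**Figure D2:**
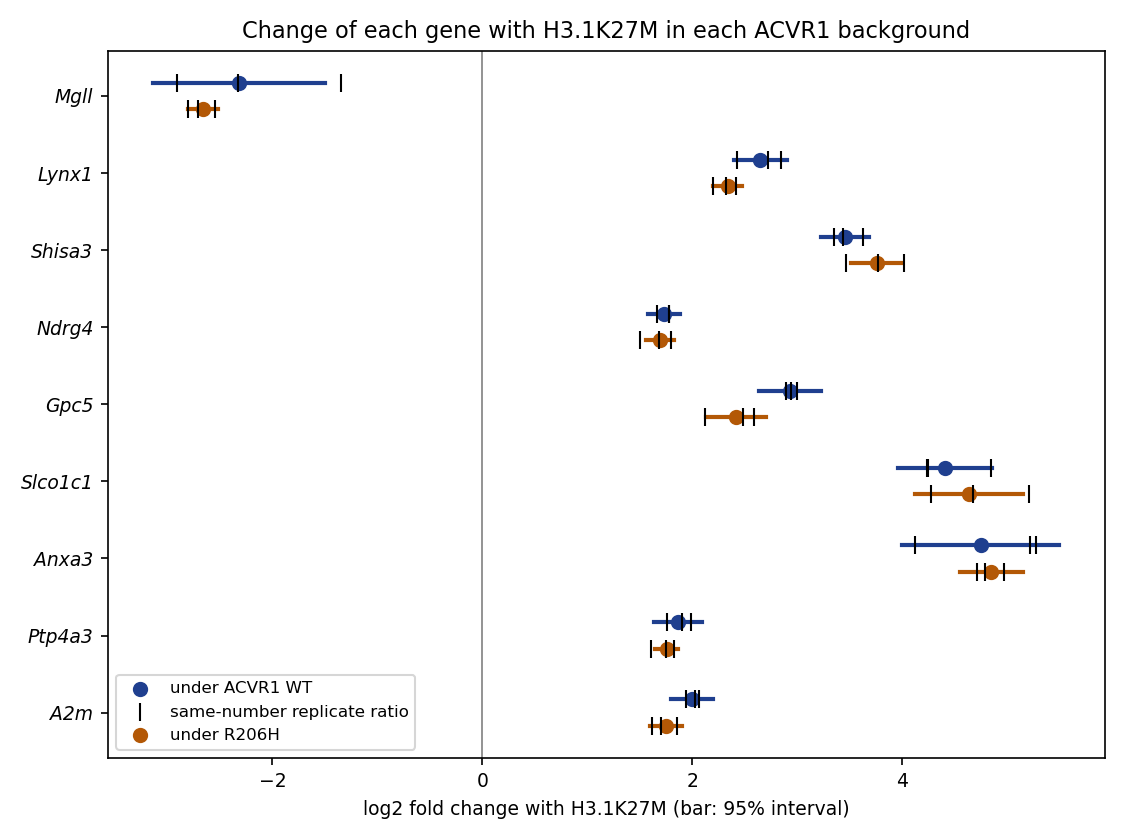
Log2 fold change with H3.1K27M (x axis) for each gene under ACVR1 WT (blue) and under R206H (brown). Circles are the fitted values, bars their 95% intervals and black ticks the ratios of libraries with the same replicate number. The ticks of Lynx1, Gpc5 and A2m do not overlap between the backgrounds, as for 12% of 15357 genes, and for these 3 genes the change under R206H is the smaller.

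The difference between the backgrounds was tested as the interaction of R206H with H3.1K27M over all 12 libraries, with edgeR's quasi-likelihood test and Benjamini-Hochberg adjustment over 15445 genes. None of the 9 genes passed an adjusted p of 0.05, and 0.0712% of all genes did. The genes at an unadjusted p under 0.05 were 2, against 1183 of all genes (7.66%), namely Gpc5 with -0.51 (95% interval -0.85 to -0.17, edgeR adjusted p = 0.533) and Lynx1 with -0.31 (-0.57 to -0.055, edgeR adjusted p = 0.587). DESeq2 called 0 of the 9 as well and 97 of all genes, with 2 of the 9 at an unadjusted p under 0.05. A2m had -0.25 (-0.51 to 0.013) and Ndrg4 -0.038 (-0.24 to 0.16), so the interval of Ndrg4 reached no further than 0.24 from 0. For Anxa3 (-0.64 to 0.85) and Mgll (-1.15 to 0.47) the intervals were wide. Without replicate 1 of ACVR1 WT, 1 of the 9 genes passed, against 26.6% of 15459 genes. This was Lynx1 with -0.40 (edgeR adjusted p = 0.00892, and 0.00884 to 0.902 over all alternatives). In the same fit the Anxa3 value turned from 0.11 to -0.37 (edgeR adjusted p = 0.367), and that of Mgll went from -0.34 to -0.029.

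R206H was then compared with ACVR1 WT in libraries without H3.1K27M. The genes were not chosen on this contrast. Its libraries are the baseline of the changes that chose them, though, so it is not independent of that choice. Of the 9, 8 had enough counts to be tested, and 7 of these were higher with R206H. The median log2 fold change of the 8 was 0.43, and that of all genes tested was -0.013. A2m was 1.78-fold higher (log2 fold change 0.84, 95% interval 0.61 to 1.06), and of 15066 genes tested it had the smallest unadjusted p. Ndrg4 had 0.50 (0.30 to 0.69), Lynx1 0.51 (0.20 to 0.82) and Ptp4a3 0.37 (0.13 to 0.61). In these 4 genes all R206H libraries lay above all ACVR1 WT libraries, and of all genes tested 9.21% had groups that did not overlap, in either direction. Shisa3 had 0.029 (-0.42 to 0.48), Gpc5 0.12 (-0.31 to 0.54), Anxa3 0.52 (-0.33 to 1.36) and Mgll -0.39 (-1.17 to 0.39).

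None of these values passed edgeR's test after adjustment (adjusted p = 0.94 to 0.98), and neither did any other gene, so that 0% of 15066 genes were called. At an unadjusted p under 0.05 edgeR found 4 of the 9 genes and 534 of all genes (3.54%). After adjustment DESeq2 called 2 of the 9, Ndrg4 and A2m, and 26 of all 15066 genes. Without replicate 1 of ACVR1 WT, edgeR called 6 of the 9 and 3485 of all genes (23.1%). The 6 were A2m at 0.89 (adjusted p = 0.0019 from edgeR), Anxa3 at 1.00 (0.0172), Lynx1 at 0.61 (0.00942), Ndrg4 at 0.53 (0.00487), Ptp4a3 at 0.47 (0.00473) and Mgll at -0.69 (0.0045). Over all alternatives the adjusted p of A2m ran from 8.337e-15 to 1.00. Slco1c1, which was under the count filter, had -0.69 (standard error 0.43) with no filter (edgeR adjusted p = 0.81).

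With H3.1K27M, R206H and ACVR1 WT differed in all 9 genes when these 6 libraries were fitted alone. The libraries also entered the changes that chose the genes, so the shares below are not independent of that choice. All 9 passed edgeR's test, against 20.3% of 15672 genes, and in all 9 the groups did not overlap, against 37.2% of those genes. Higher with R206H were 6 of them, against 11.4% of all genes. Anxa3 had a log2 fold change of 0.62 (95% interval 0.42 to 0.81, edgeR adjusted p = 3.724e-04), A2m 0.59 (0.47 to 0.70, 8.863e-06) and Ndrg4 0.45 (0.35 to 0.55, 2.230e-05). Shisa3 had 0.33, Ptp4a3 0.26 and Lynx1 0.19, with edgeR adjusted p of 7.859e-04, 0.00111 and 0.00867. Lower with R206H were 3, against 8.95% of all genes, namely Mgll at -0.73 (-0.90 to -0.57, 2.317e-05), Slco1c1 at -0.46 (-0.69 to -0.23, 0.00922) and Gpc5 at -0.39 (-0.57 to -0.22, 0.00366). So for Mgll and the 6 higher genes the R206H libraries lay further along the direction of H3.1K27M, and for Slco1c1 and Gpc5 they lay less far. These differences were small beside those with H3.1K27M, since the highest was 1.66-fold, that of Mgll.

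The 9 genes were chosen on these libraries, and whether that choice favored a low spread was not tested. The median coefficient of variation of the 9 was 3.58% under ACVR1 WT with H3.1K27M and 6.87% under R206H with H3.1K27M, against 5.96% and 5.54% over 15483 genes. With all 12 libraries in 1 fit, the 4 groups share 1 estimate of the spread. There 2 of the 9 were called, A2m and Ndrg4 (both edgeR adjusted p = 0.00367), and 440 of 15445 genes tested. The adjusted p of the other genes of the 9 ran from 0.0502 to 0.294.

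**Figure D3:**
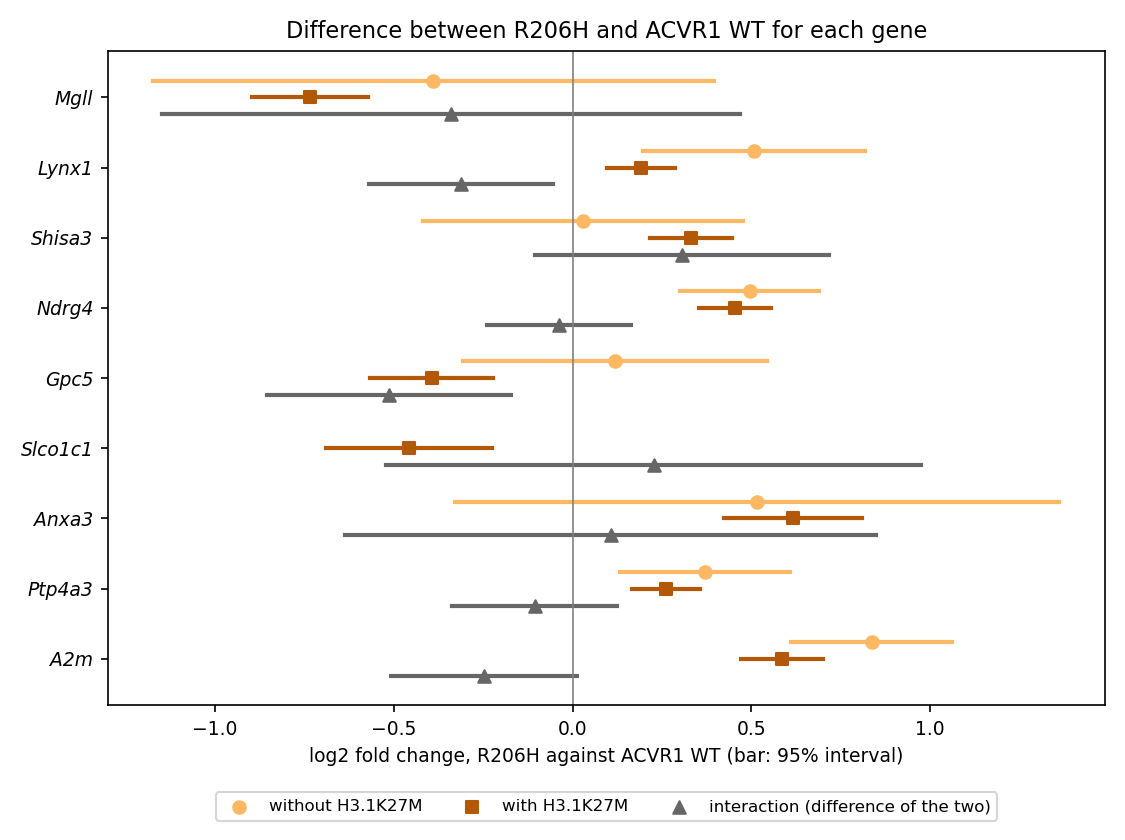
Log2 fold change of R206H against ACVR1 WT (x axis) for each gene without H3.1K27M (circles) and with it (squares), and the difference between them, the interaction (triangles). Bars are 95% intervals. Those with H3.1K27M all exclude 0, and of the interactions only those of Lynx1 and Gpc5 do. Slco1c1 has no circle because it was under the count filter.

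Genes that work with the 9 were read from lists drawn up for each of them, 116 genes in 9 lists, of which 96 were tested in each background. With H3.1K27M under ACVR1 WT, 24 rose and 8 fell (33.3% called), against 12.6% and 10.4% of all 15385 genes, or 23% in either direction. Under R206H, 44 rose and 21 fell (67.7%), against 29.1% and 27.4% of all 15482 genes, or 56.5% in either direction. The 31 genes called in both backgrounds all moved the same way. Over the 96 genes tested in each background the median log2 fold change was 0.049 and 0.16, and that of all genes was -0.021 and -0.0018. The count under ACVR1 WT depended on single libraries, and was 68 without replicate 1 of ACVR1 WT (where 52.6% of all genes were called), 13 without its replicate 2, and 11, 12 and 14 without replicates 1, 2 and 3 of ACVR1 WT with H3.1K27M.

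The partners of Slco1c1 in thyroid hormone handling included the largest of these changes. Slco1a4, the neighboring carrier on chromosome 6, rose by 5.01 and 4.78 on the log2 scale under ACVR1 WT and R206H (edgeR adjusted p = 4.650e-04 and 2.547e-09). Dio2, the deiodinase that makes active thyroid hormone, rose by 2.13 and 2.04 (edgeR adjusted p = 9.654e-04 and 8.815e-08). Ttr, a thyroid hormone carrier known from the choroid plexus, fell by 4.58 under R206H (edgeR adjusted p = 6.009e-07) and had -3.76 under ACVR1 WT, where it did not pass, and -4.08 without replicate 1 of ACVR1 WT, where it did (edgeR adjusted p = 0.00280). Ttr was uneven in the ACVR1 WT libraries with H3.1K27M, from 0.12 to 6.69 CPM (3 to 140 counts). In this list 4 of 17 rose and 0 fell under ACVR1 WT, and 8 rose and 3 fell under R206H.

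Around Lynx1, 3 of 8 genes tested rose and 1 fell under ACVR1 WT, and 4 of 7 rose and 2 fell under R206H. Chrna4, a nicotinic receptor subunit, rose by 2.30 (3.04 without replicate 1 of ACVR1 WT) and 1.44, Ly6e, a Ly6 gene near Lynx1 on chromosome 15, by 1.68 and 1.31, and Lypd6 by 1.64 and 1.26. Around Shisa3, 9 of 20 rose and 3 fell under ACVR1 WT, and 11 of 21 rose and 5 fell under R206H. Its relative Shisa9, an auxiliary protein of AMPA receptors, had -3.22 (-3.72 without replicate 1 of ACVR1 WT) and -1.86 and so went the other way, while the Frizzled receptor Fzd10 rose by 1.76 (2.36 without replicate 1 of ACVR1 WT) and 1.67. Fgfr4 was tested under R206H only, where it rose by 3.45, from 1 to 6 counts to 40 to 61 counts. Under ACVR1 WT it was under the count filter, with 0 to 2 counts without H3.1K27M and 11 to 21 with it.

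Among the glypicans and the enzymes that build heparan sulfate, 4 of 17 rose and 0 fell under ACVR1 WT, and 10 of 18 rose and 4 fell under R206H. Gpc4 rose by 2.04 and 1.82 and Ndst3, a heparan sulfate sulfotransferase, by 1.19 and 1.75. Notum, a secreted enzyme that inactivates Wnt proteins, was tested under R206H only and rose by 2.02, from 9 to 16 counts to 48 to 80. Under ACVR1 WT it was under the count filter, with 1 to 6 counts without H3.1K27M and 7 to 14 with it.

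Of the 3 relatives of Ndrg4, 0 rose in either background and 1 fell under ACVR1 WT and 2 under R206H. Ndrg1 had -2.46 and -1.63, called in both, and Ndrg2 -0.995 and -0.91, called under R206H. Without replicate 1 of ACVR1 WT, Ndrg2 also passed under ACVR1 WT, with -1.32. Among the annexins and their S100 partners, 2 of 10 rose and 2 fell under ACVR1 WT, and 4 of 11 rose and 2 fell under R206H. Anxa6 rose by 1.30 and 1.18 and Anxa1 by 0.93 and 0.97, while S100a10 had -1.71 and -1.11.

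Around Mgll, 1 of 9 endocannabinoid and prostaglandin genes rose and 1 fell under ACVR1 WT, and 4 rose and 3 fell under R206H. Dagla, which makes the lipid that Mgll degrades, rose by 0.46 and 0.74. The cyclooxygenases Ptgs1 and Ptgs2 rose under R206H, by 1.40 and 0.90, and had 0.10 and -1.10 under ACVR1 WT, where they did not pass. Without replicate 1 of ACVR1 WT these values were -0.34 and -1.55, and that of Ptgs2 passed in the direction opposite to R206H (edgeR adjusted p = 4.793e-04). In the lists of Ptp4a3 and A2m few genes passed. Ptp4a2 and Cnnm2 rose by 0.11 and 0.25 under R206H, where 2 of 5 genes passed (Cnnm2 also under ACVR1 WT without its replicate 1, with 0.26), and Hspa5 by 0.17, the only one of 5 in the A2m list that passed. Ptp4a1, called under ACVR1 WT with 1.74, shares its place with a second gene record and its counts are uncertain.

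**Figure D4:**
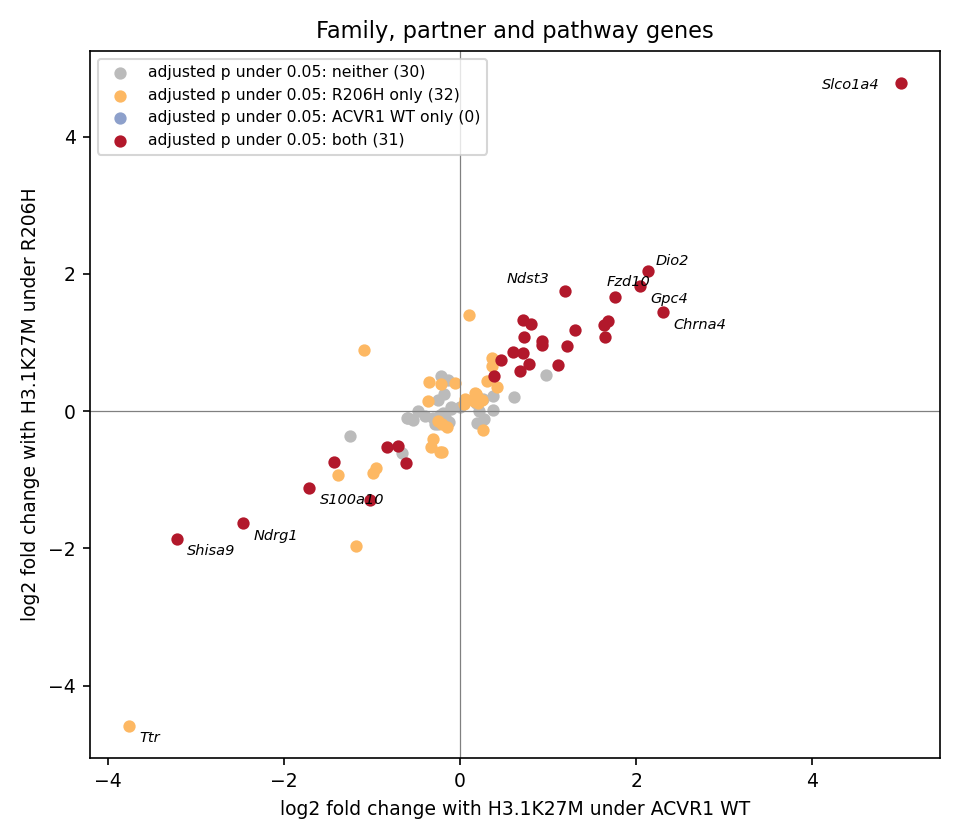
Log2 fold change with H3.1K27M under ACVR1 WT (x axis) and under R206H (y axis) for the 93 listed genes tested in both backgrounds, colored by whether the edgeR adjusted p was under 0.05. The 31 genes called in both lie in the upper right and lower left, with Slco1a4 the highest, and 32 were called under R206H alone.

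Of all other genes, those whose log2 CPM followed the 9 most closely over the 12 libraries were named for each. They were Gas6 (r = 0.997) and Nkx2-1 (0.996) for Shisa3, Crot and Bmper (both 0.997) for Anxa3, and 1500009L16Rik (0.998) and Col22a1 (0.996) for Ndrg4. Cyyr1 was named for both Lynx1 (0.996), with H2-Q4 (0.996), and Ptp4a3 (0.997), with Bmper (0.995). For Mgll they were Prag1 (0.996) and Pde1b (0.995), for Gpc5 Akap1 (0.995) and Mdk (0.994), for Slco1c1 Gm13394 (0.990) and Cybrd1 (0.989), and for A2m Efemp2 (0.992) and 1500009L16Rik (0.989). These values describe libraries that fall into a set with H3.1K27M and a set without it, and many genes share that split.

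Other values moved with H3.1K27M in the same libraries. Counts on Acvr1 were 46.1 to 53.1 CPM with ACVR1 WT and 82.3 to 114 CPM with R206H, but 163 to 368 CPM with ACVR1 WT and H3.1K27M and 548 to 1056 CPM with R206H and H3.1K27M. So the libraries with R206H and H3.1K27M, in which 7 of the 9 genes lay furthest from the ACVR1 WT level, also had the most Acvr1. The sum of Hist1h3a, Hist1h3b and Hist1h3i, H3.1 genes, was 0.146 to 0.329 CPM without H3.1K27M, 21.4 to 40.8 CPM with it under ACVR1 WT and 77.9 to 102 CPM under R206H. Acvr1 was thus also higher with H3.1K27M in each background. The part of virus dose in the changes with H3.1K27M, and in the difference between R206H and ACVR1 WT, was not tested.

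Genes of regional identity, picked after the data were seen, also differed. The sum of 8 Hox genes of paralog groups 1 to 4, which mark the hindbrain, was 20.99 to 27.8 CPM in the 6 libraries without H3.1K27M and 6.02 to 9.70 CPM in the 6 with it. The sum of 6 forebrain and midbrain factors (Six3, Nkx2-1, Otx1, Otx2, Lhx2 and Emx2) was 7.12 to 11.3 CPM and 46.5 to 62.5 CPM. Nkx2-1, one of the genes closest to Shisa3, had 0 counts in all 6 libraries without H3.1K27M and 83 to 201 counts in those with it. The 12 microglia and macrophage markers summed to 11.4 to 57.2 CPM without H3.1K27M and 4.73 to 7.06 CPM with it, and of these 0 rose and 7 of 9 fell under ACVR1 WT, while under R206H 1 rose and 6 of 7 fell. Fibroblast, pericyte and meningeal markers summed to 60.1 to 108 CPM and 131 to 167 CPM, with 5 of 7 higher under ACVR1 WT and 6 of 6 under R206H. Most of that sum was Cspg4, also a gene of oligodendrocyte progenitors, and without it the sums were 9.61 to 16.3 CPM and 19.1 to 35.0 CPM. The 10 neuron markers summed to 1174 to 1706 CPM without H3.1K27M and 627 to 801 CPM with it, the 6 ependymal markers to 32.5 to 60.7 CPM and 70.5 to 85.4 CPM, and the 12 oligodendrocyte lineage markers to 3153 to 3592 CPM and 3769 to 4586 CPM. In these 3 lists a single gene separated the sums, which overlapped without Map2, Foxj1 and Olig1. Of the neuron markers 2 of 9 fell and 1 rose under ACVR1 WT, and 3 fell and 4 rose under R206H. Ependymal markers rose in 2 of 5 and 2 of 4 cases and 1 fell under R206H, and of the oligodendrocyte lineage 1 rose and 2 fell under ACVR1 WT, and 6 rose and 4 fell under R206H. Sums of the 12 astrocyte markers overlapped, with 5 lower under ACVR1 WT, and 7 lower and 3 higher under R206H. The endothelial list bears on Slco1c1 as a gene known from vessels. Its 9 markers include Slco1a4, the relative of Slco1c1, and without Slco1a4 the other 8 summed to 5.44 to 15.9 CPM without H3.1K27M and 5.23 to 9.30 CPM with it. Of the 9 endothelial markers 1 of 3 tested rose under ACVR1 WT, and 2 rose and 1 fell under R206H. They did not move together, since Flt1, the highest of the 8 in mean level, had 3.93 to 13.6 CPM without H3.1K27M and 2.41 to 3.34 CPM with it, while Tek had 0 to 5 counts and 8 to 17, and Cdh5 0 to 3 counts and 7 to 24. Sums of the 10 progenitor markers overlapped, with 0 higher and 2 lower under ACVR1 WT, and 1 higher and 5 lower under R206H. Hes5, a Notch target among them, had 60.4 to 85.8 CPM without H3.1K27M and 6.56 to 11.5 CPM with it. The part of these cell types in the changes of the 9 genes was not tested. An effect of H3.1K27M on the 9 genes cannot be told apart here from a difference in Acvr1 level, in the starting cells or in their makeup. In bulk RNA fewer cells of a type and less RNA per cell cannot be told apart either.

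**Figure D5:**
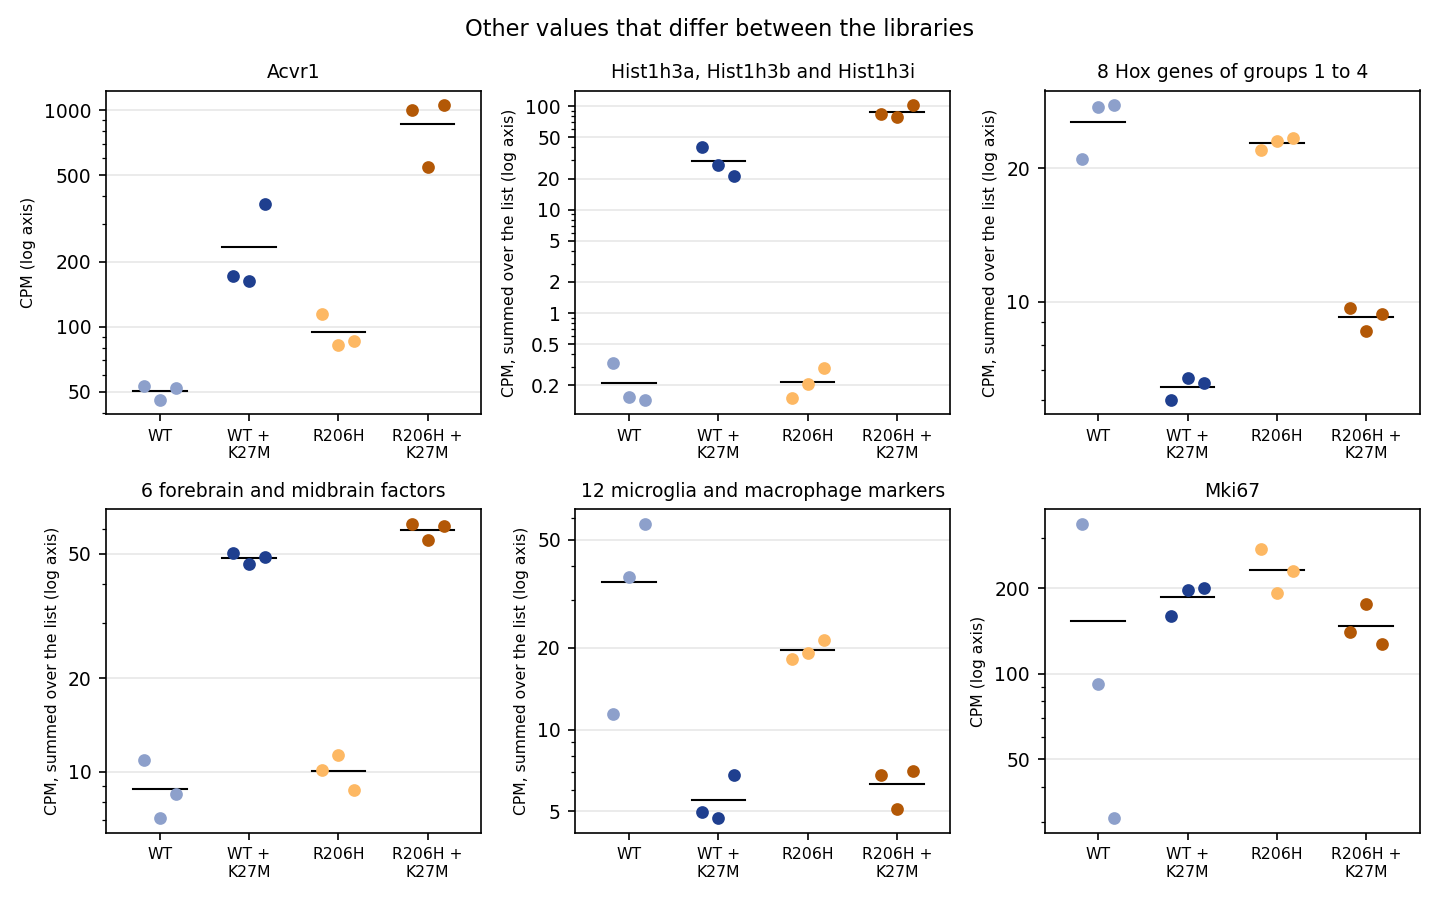
CPM (log axis) of Acvr1, of Mki67 and of 4 summed gene lists in each of the 12 libraries, with the mean of each group as a line. Acvr1, the H3.1 genes and the forebrain and midbrain factors are higher, and the Hox genes and microglia markers lower, in all libraries with H3.1K27M than in those without it.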

How the data were processed

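RNAseq of 12 neurosphere libraries, 3 per group, was analysed from count tables. Per the study's methods, the authors used STAR 2.6.0b-1 with the mm10 genome and then HTSeq-count, which ignored strand, worked in union mode and dropped alignments of quality under 10. They deposited the resulting counts per Ensembl gene, neither normalized nor pooled. Groups and replicate numbers came from the sample labels, which do not say whether replicates are separate cultures or litters. The study's methods take cell lines from separate litters as the sample for neurosphere assays, blots and qRT-PCR, and do not name RNAseq there, so p-values measure only the spread between these libraries. Positions and symbols were taken from GENCODE M21 (54495 of 54532 genes found).

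Genes were kept at a mean of 10 or more counts, each library scaled with DESeq2's size factors, and tested with edgeR 4.0.16 (R 4.3.3, TMM normalization, quasi-likelihood F test, Benjamini-Hochberg adjustment over all genes tested, threshold 0.05) on the 6 libraries of each comparison, and the interaction on all 12. CPM values are TMM-scaled, and values after a log2 fold change in parentheses are standard errors or, where said, 95% intervals. With 3 libraries against 3, an exact two-sided test of a single gene cannot go below 0.1. Depth was similar in all libraries, and the lowest members rest on the few counts given for them. The methods were tested on simulated counts with the same spread in every group, which does not cover the uneven ACVR1 WT group.

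The 9 genes, the lists of related genes and the alternatives were chosen with earlier results of these data known. Besides the 9, the text names up to 3 genes per related list with the largest mean absolute log2 fold change among those called in at least 1 background (Hspa5 was the only one in its list, and Ndrg3 did not pass), the genes with the highest Pearson correlation with each of the 9, Acvr1, and marker lists. Alternatives were DESeq2 1.42.0, its size factors in edgeR, limma-voom (limma 3.58.1) with sample quality weights, no filter, the replicate number as a block, all 12 libraries in one fit, and leaving out each library.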

Additional observations from a re-analysis of the deposited data

How the results depend on the processing

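The direction of the change with H3.1K27M held for all 9 genes under every alternative, and the median of its size stayed at 2.58 to 2.74 under ACVR1 WT and 2.36 to 2.52 under R206H on the log2 scale. The number of the 9 genes called for R206H without H3.1K27M, 0, became 2 with DESeq2, 6 with limma-voom and sample quality weights and 2 with all 12 libraries in one fit, and ran from 0 to 6 when single libraries were left out, the 6 without replicate 1 of ACVR1 WT, also with DESeq2, an alternative added after seeing the data. The number called with H3.1K27M, 9, became 2 with all 12 libraries in one fit and stayed at 9 otherwise. The interaction, 0, became 3 with limma-voom (Lynx1, Gpc5 and Ptp4a3) and 0 to 1 when single libraries were left out. Related genes called under ACVR1 WT, 32, became 73 with limma-voom, 51 with all 12 libraries, 21 with the replicate block and 11 to 68 when single libraries were left out. Under R206H the 65 stayed at 51 to 65. With the replicate block the calls of the 9 genes stayed at 0, 9 and 0. The labels share only numbers: same-numbered libraries' deviations from their group means correlated at -0.115 to 0.325 over 15445 genes, not above 0.1 for every pair in any comparison, and of 6 libraries 4, 3, 6 and 3 correlated best with their own number (R206H without and with H3.1K27M, H3.1K27M under ACVR1 WT and R206H). All genes called under ACVR1 WT with H3.1K27M, 3533, were 9234 with limma-voom, 6335 with all 12 libraries, 2023 with the replicate block and 1037 to 8115 when single libraries were left out. For R206H without H3.1K27M the 0 were 26 with DESeq2, 3683 with limma-voom, 11 with all 12 libraries and 0 to 3485 when single libraries were left out. For R206H with H3.1K27M the 3185 were 440 with all 12 libraries and 1915 to 2966 when single libraries were left out. The 11 of the interaction were 97 with DESeq2, 4550 with limma-voom, 18 with no filter, 2 with the replicate block and 3 to 4112 when single libraries were left out. Signs turned in values that passed no threshold: leaving out single libraries, Shisa3 without H3.1K27M ran from -0.18 to 0.12 (-0.057 and -0.18 without replicate 2 of ACVR1 WT and replicate 3 of R206H), and the interaction of Ndrg4 from -0.084 to 0.032, of Slco1c1 from -0.026 to 0.61 and of Anxa3 from -0.37 to 0.32, the last -0.36 with limma-voom. The Ndrg4 and Slco1c1 signs turned without replicate 1 of R206H and that of Anxa3 without replicate 1 of ACVR1 WT. The cause was not tested. Where a group was left with 2 libraries the fit pooled the spread. Depth limits Slco1c1, Gpc5 and Anxa3 without H3.1K27M, at 4 to 71 counts.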

Other observations

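The genes within 500 kb of each of the 9 were read for neighbors that moved with them. Called with H3.1K27M in both backgrounds in 1 direction were 3 of 11 tested neighbors of Mgll (1 higher, 2 lower), 2 of 5 of Lynx1 (both higher), 1 of 4 of Shisa3 (lower) and 2 of 14 of Ndrg4 (both higher). For Gpc5 they were 1 of 2 (higher), for Slco1c1 2 of 4 (both higher), for Anxa3 3 of 4 (1 higher and 2 lower, against the rise of Anxa3), for Ptp4a3 1 of 5 and for A2m 1 of 2 (each higher). Over all genes tested in both backgrounds this share was 21.7%. The largest neighbors were Slco1a4 beside Slco1c1 (4.90, mean log2 fold change over both backgrounds), Gm26588 beside Mgll (-2.57), Dennd3 beside Ptp4a3 (2.02), Usp18 beside A2m (1.98), Ly6e beside Lynx1 (1.496), Fras1 beside Anxa3 (1.25) and Mmp15 beside Ndrg4 (0.80). Gpc6, the glypican gene next to Gpc5, had 0.89. Beside Shisa3, Atp8a1 had -0.32, against the direction of Shisa3. Gm26588 and Atp8a1 lie on the strand opposite to Mgll and Shisa3 and overlap their exons. The counts ignored strand, so their values may hold reads of those genes.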
